A study of Danio rerio with 9 samples.

Results

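A total of 9 zebrafish melanomas were divided by the level of hoxc11a, a Hox transcription factor gene of the posterior body. The 5 tumours with more than 30 normalised CPM of hoxc11a (a gene's reads relative to the tumour's normalised library size) formed the hoxc-high set (R157, R158, R160, R161 and R163), and the 4 tumours with less than 1 CPM formed the hoxc-low set (R159, R162, R164 and R165), so that all 9 tumours were placed. Members were thus chosen by measured hoxc11a levels, and the sets are not groups of the study. Levels of hoxc11a were 36.5, 99.6, 91.1, 40.4 and 73.5 CPM in the hoxc-high tumours R157, R158, R160, R161 and R163. They were 0.580, 0.731, 0 and 0.109 CPM in the hoxc-low tumours R159, R162, R164 and R165, where the 0 in R164 allows up to 0.435 CPM at 3 reads. No tumour lay between the thresholds, and the nearest to each were R157 above and R162 below. Because the cut used these libraries, the hoxc genes and the marker hoxa9b are described without a test, and a p-value for any other gene measures its association with the cut.

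Hox genes lie in clusters, and their order along the chromosome follows the order of the body regions in which they are active, with low-numbered paralog groups acting towards the head and high-numbered groups towards the tail. Teleost fish kept extra clusters after a genome duplication, so that zebrafish have an a and a b copy of the hoxc cluster. In human skin, fibroblasts keep a pattern of HOX expression that reflects their position on the body. The position of each tumour on the fish is not given in the labels used here.

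The tumours came from fish of the genotype p53-/-, mitfa:BRAFV600E and Na-/-, which lack the tumour suppressor p53, express the human melanoma oncogene BRAF V600E from the melanocyte promoter mitfa and have no melanocytes of their own. Embryos were injected with MiniCoopR, a vector that restores mitfa and with it melanocytes, carrying either human CDK13 with the R860Q change in its kinase domain (R157 to R161) or EGFP as the control (R162 to R165). All fish thus shared the background and the rescue vector, and each tumour is a bulk dissected sample in which fewer cells of a type and less RNA per cell cannot be told apart. Total RNA was depleted of ribosomal RNA and sequenced, giving 5518472 to 15120176 counted reads per tumour over 30649 gene rows. Whether any tumours shared a fish is not stated in the labels, and a p-value therefore reflects only how these particular samples varied.

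The cut ran across the vectors, but not evenly. The hoxc-high set held 4 of the 5 R860Q tumours and 1 of the 4 EGFP tumours (Fisher's exact test, two-sided, p = 0.206). Set and vector therefore could be told apart only through R159, the R860Q tumour without hoxc11a, and R163, the EGFP tumour with it. The transgene row hCDK13 held 16.2 to 748 CPM in the R860Q tumours, with 54.5 CPM in R159, and at most 0.487 CPM in the EGFP tumours. The melanocyte regulator mitfa was present in every tumour, at 63.0 to 227 CPM, and no difference between the sets was called (log2 fold change 0.13 ± 0.38 (SE), edgeR adjusted p = 0.956). Reads of 5.8S rRNA were 0 in R163 and R165 and 42 to 574 elsewhere, a split that crossed the sets.

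The hoxc-high tumours carried the whole posterior end of both hoxc clusters. All 8 hoxc rows of paralog groups 9 to 13 reached 1 CPM in each of the 5 tumours, against 1, 2, 0 and 3 of these rows in R159, R162, R164 and R165. The 7 rows of groups 10 to 13 were all higher in every hoxc-high tumour than in every hoxc-low tumour, whereas this held for 1 of the 8 rows of lower groups, hoxc4a. For hoxc4a the sets parted by few reads, 7 in R161 (0.992 CPM) against 3 in R162 (0.731 CPM). These counts follow in part from the cut itself, which used hoxc11a, and hoxc10a is a given marker of the set. Among the 15158 genes tested outside the hoxc clusters, 0.693% were higher in every hoxc-high tumour. Summed over groups 9 to 13, hoxc levels were 150 to 358 CPM in the hoxc-high tumours and 4.35, 7.55, 0.579 and 46.3 CPM in R159, R162, R164 and R165.

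**Figure D1:**
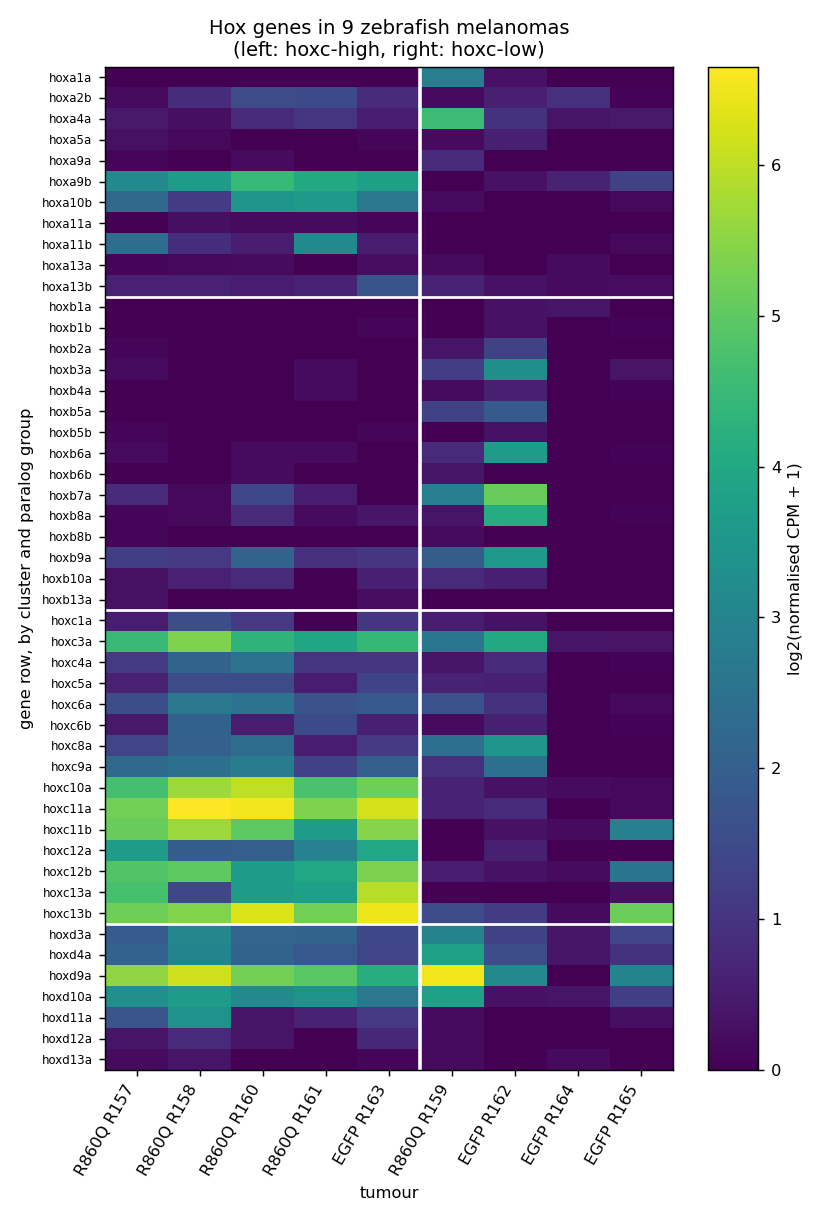
Levels of the 48 Hox gene rows as log2(normalised CPM + 1) in the 5 hoxc-high tumours (left of the white line) and the 4 hoxc-low tumours (right), with rows in order of cluster and paralog group. The hoxc rows of groups 10 to 13 are bright in all 5 hoxc-high tumours, and each hoxc-low tumour has a Hox pattern of its own, from R159 with hoxd9a at 90.4 CPM to R164 with no row at 1 CPM.

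Within the hoxc-high set the genes at the tail end of the a cluster varied widely. The gene hoxc13a was at 25.5, 1.65, 11.9, 12.6 and 60.8 CPM in R157, R158, R160, R161 and R163. Its neighbour hoxc12a was at 11.7, 2.89, 3.04, 6.66 and 15.0 CPM. R163, the EGFP tumour, was thus the highest for both, and R158, the tumour with the most hoxc11a, the lowest. The gene hoxc10a ranged less, from 24.8 to 63.8 CPM, against 0.109 to 0.580 CPM in the hoxc-low tumours.

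The hoxc-low tumours were not alike. R165 had none of the a cluster rows at 1 CPM but had the posterior b cluster genes hoxc11b at 6.51, hoxc12b at 4.94 and hoxc13b at 34.4 CPM, the last just under the lowest hoxc-high value of 35.3 CPM. R162 had hoxb genes of several paralog groups, with hoxb7a at 33.6, hoxb8a at 16.3, hoxb6a at 11.7, hoxb9a at 10.7 and hoxb3a at 9.02 CPM. It also had the highest hoxc8a of all tumours, at 10.2 CPM. R159 had the anterior gene hoxa4a at 22.6 CPM and the highest hoxd9a and hoxd10a, at 90.4 and 12.9 CPM. R164 had 29 reads over all 48 Hox rows and none at 1 CPM. The number of Hox rows at 1 CPM was 14, 14, 0 and 7 in R159, R162, R164 and R165 and 19 to 23 in the hoxc-high tumours. A low hoxc11a level therefore did not mark a single Hox pattern.

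Outside the hoxc clusters, 4 of 33 Hox rows were higher in every hoxc-high tumour than in every hoxc-low tumour, and none lower in every one. These were hoxa9b, hoxa10b, hoxa11b and hoxd11a, all of posterior paralog groups, and of these only hoxa9b and hoxa10b passed the filter on low counts. For hoxa11b and hoxd11a the sets parted by very few reads, within counting error. The row hoxd11a had 2 reads in R160 (0.29 CPM) against 4 reads in R165 (0.217 CPM). The row hoxa11b had 3 reads in R160 and 5 in R163 against 2 in R165. Over all 15158 genes tested outside the hoxc clusters, 0.693% were higher in every hoxc-high tumour and 1.21% lower. These shares cover genes that passed the filter, as 7 of the 33 Hox rows did, and are not a like measure for all 33. As hoxa9b is a given marker, hoxa10b was the only other tested Hox row that was higher in every hoxc-high tumour. The marker hoxa9b was at 7.88, 11.9, 21.0, 15.6 and 12.8 CPM in R157, R158, R160, R161 and R163 and at 0, 0.244, 0.579 and 1.47 CPM in R159, R162, R164 and R165. Its cluster neighbour hoxa10b was at 3.94, 1.24, 10.3, 11 and 5.34 CPM in the same hoxc-high tumours and at 0.145, 0, 0 and 0.109 CPM in the hoxc-low tumours. With 279 reads in the hoxc-high and 3 in the hoxc-low set, the ratio of pooled rates for hoxa10b was 68.6 (95% exact interval 23.2 to 334, counting error only). This row passed the filter only through the hoxc-high tumours, so its p-values are given as a description. In the fit the adjusted p was 0.101 with edgeR's quasi-likelihood test and Benjamini-Hochberg adjustment. It was 6.75e-06 with DESeq2, 0.0335 with no filter on low counts and 0.178 with the vector as a term. With edgeR it was 0.0207 without R158 and 0.394 without R164, and without R157 or R163 the row did not pass the filter. The call thus depended on the test and on single tumours.

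The gene hoxa11b divided the hoxc-high set, at 4.16 CPM in R157 and 7.94 CPM in R161 but 0.411 to 0.827 CPM in the other 3. The tested hoxd genes overlapped between the sets. The gene hoxd9a was at 45.8, 70.8, 37.5, 30.1 and 16.8 CPM in R157, R158, R160, R161 and R163 and at 90.4, 7.80, 0 and 7.06 CPM in R159, R162, R164 and R165. The sets overlapped through R159, and the log2 fold change was 0.61 ± 1.12 (edgeR adjusted p = 0.924). For hoxd10a it was 1.22 ± 0.92 (adjusted p = 0.780), again with R159 the highest. The genes hoxd3a and hoxd4a differed by 0.56 ± 0.73 and -0.18 ± 0.88. The 1 tested hoxb gene, hoxb9a, differed by -1.07 ± 1.25 (adjusted p = 0.866), with R162 high and R164 and R165 at 0 reads. The 5 rows of mir196 and 5 rows of mir-10 microRNAs, families with members in Hox clusters, held 0 reads in every tumour.

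None of the tested genes next to the hoxc clusters was called, but edgeR called only 1 of all 15158 genes tested outside the clusters. The lack of a call is therefore no result about these neighbours. The 3 genes on each side of each cluster were taken in the order of the RefSeq annotation of GRCz12tu, which is not the build of the counts, and 10 of these 12 genes were tested. The transcriptional coactivator calcoco1a, beside the a cluster, was at 154 to 258 CPM in the hoxc-high and 74.6 to 153 CPM in the hoxc-low tumours (log2 fold change 0.80 ± 0.30, edgeR adjusted p = 0.579). Its copy calcoco1b was at 62.2 CPM in R159 and 0.543 to 6.82 CPM in the other 8 tumours (-2.98 ± 1.17, adjusted p = 0.593). The heterochromatin protein gene cbx5 differed by 0.49 ± 0.34 and the retinoic acid receptor gene rarga by 0.36 ± 0.35.

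Across all other genes few were called by edgeR, and few calls do not show that few genes differed. On simulated data the fit recovered 4% of changes of log2 1 and 40% of log2 2. It recovered 76% of changes of log2 3 and 88% of log2 4. The simulation changed 50 genes at each size, all with a mean above 1 CPM, and drew genes independently. These shares hold for that setting and need not hold for the tumours. Of 15158 genes tested, edgeR called 1 higher in hoxc-high tumours (0.0066%) and 0 lower (0%) at an adjusted p of 0.05. At these shares the lack of a call in a gene list is no result about that list. At an unadjusted p under 0.05, 375 genes were on the higher side (2.47%) and 828 on the lower (5.46%), and 47.7% of all genes lay on the higher side. DESeq2 called 35 higher, the given marker hoxa9b among them, and 64 lower, and limma voom called 0 in either direction. The correlation of log2 levels outside Hox genes had a median of 0.885 over the 10 pairs of hoxc-high tumours, 0.805 over the 6 pairs of hoxc-low tumours and 0.847 over the 20 pairs between the sets. The median between the sets thus lay between the medians within each, while the ranges overlapped. Pairs ran from 0.777 to 0.902 between the sets, 0.837 to 0.905 within hoxc-high and 0.754 to 0.862 within hoxc-low tumours.

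**Figure D2:**
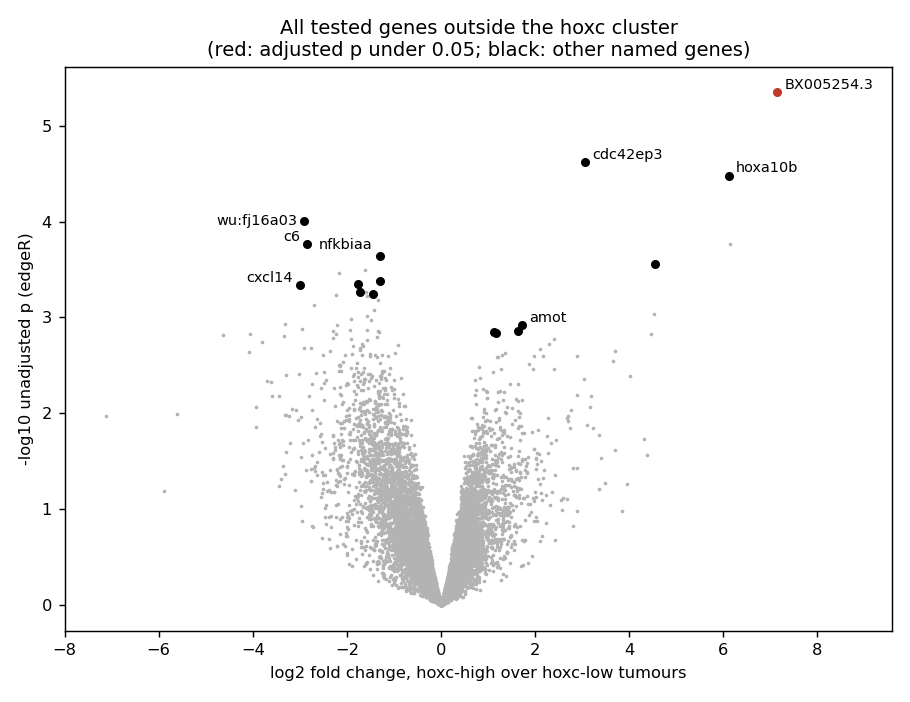
Log2 fold change of hoxc-high over hoxc-low tumours against the unadjusted edgeR p on a -log10 scale, for the 15158 genes tested outside the hoxc clusters. The red point is the called gene BX005254.3, and the black points are the named genes that had the smallest p, 7 higher and 8 lower. The marker hoxa9b is not drawn.

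The called gene was BX005254.3, a row known only by a clone name, for which no role is given here. Rows were taken as outside the hoxc clusters by gene name only. Where the rows of this clone lie relative to the Hox clusters was not determined, and overlapping genes were not separated. It was at 3.64, 6.82, 10.9, 3.83 and 5.18 CPM in R157, R158, R160, R161 and R163, and at 0, 0, 0.145 and 0 CPM in R159, R162, R164 and R165. The hoxc-low set held 1 read in all, against 280, a ratio of pooled rates of 206 (95% exact interval 36.7 to 8180, counting error only). The row passed the filter on low counts only through the hoxc-high tumours, so its p-value is given as a description. The edgeR adjusted p was 0.0227. It was 0.0561 with the vector as a term, 0.282 with an immune score as a term, 0.21 with limma voom, and 0.0597, 0.136 and 0.108 without R159, R162 and R164. A second row of the same clone, BX005254.4, was at 3.86 to 11.6 CPM in the hoxc-high and 0 to 0.975 CPM in the hoxc-low tumours (edgeR adjusted p = 0.464), and was singled out after its values were seen.

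No other gene was called by edgeR, and the next ones are given as values. The gene cdc42ep3, whose protein binds the cytoskeletal regulator Cdc42, was at 10.6, 27.9, 15.1, 33.2 and 18.0 CPM in the hoxc-high tumours R157, R158, R160, R161 and R163 and at 1.45, 2.44, 2.03 and 3.80 CPM in R159, R162, R164 and R165. The sets were well apart, and the log2 fold change was 3.07 ± 0.44 (edgeR adjusted p = 0.091, DESeq2 adjusted p = 6.89e-08). The haemoglobin alpha gene hbaa2, which near-identical copies can share reads with, was at 1.31 to 26.1 CPM against 0.244 to 0.651 CPM (4.54 ± 0.85, adjusted p = 0.320). The Hippo pathway scaffold amot was at 44.8 to 82.9 CPM against 6.34 to 26.8 CPM (1.72 ± 0.40, adjusted p = 0.464). The connexin gene gja5b, mutated in the leopard pigment pattern of zebrafish, was at 27.0 to 74.9 CPM against 6.82 to 16.5 CPM (1.64 ± 0.38, adjusted p = 0.464). The transcriptional repressor zbtb18 and the AMP-activated kinase subunit prkab1a differed by 1.12 ± 0.26 and 1.16 ± 0.27 (both adjusted p = 0.464).

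On the lower side, the complement gene c6 was at 3.57, 3.0, 3.62, 3.12 and 0.986 CPM in R157, R158, R160, R161 and R163 and at 23.1, 23.9, 29.7 and 5.54 CPM in R159, R162, R164 and R165. The sets did not overlap (log2 fold change -2.84 ± 0.51, edgeR adjusted p = 0.237). The row wu:fj16a03, of no role given here, was at 0.904 to 3.64 CPM against 7.80 to 27.6 CPM (-2.90 ± 0.48, adjusted p = 0.176, and 0.0382 with the vector as a term). The NF-kappaB inhibitor gene nfkbiaa was at 21.3 to 25.4 CPM against 36.7 to 75.7 CPM (-1.30 ± 0.24, adjusted p = 0.291). The chemokine gene cxcl14 was at 3.10 to 18.8 CPM against 22.8 to 128 CPM (-3.0 ± 0.60, adjusted p = 0.391). The interferon-induced GTPase gene mxc, the cytochrome P450 gene cyp3c1, the AMP deaminase gene ampd3b and the tetraspanin gene cd82a differed by -1.30 ± 0.26, -1.77 ± 0.36, -1.73 ± 0.36 and -1.44 ± 0.30 (all adjusted p = 0.391). DESeq2 called all 15 named genes with the smallest edgeR p, 7 higher and 8 lower, hoxa9b not counted. Their choice by p in the same tumours favours this, and it is no independent support. Over all 15158 genes DESeq2 called 35 higher and 64 lower.

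**Figure D3:**
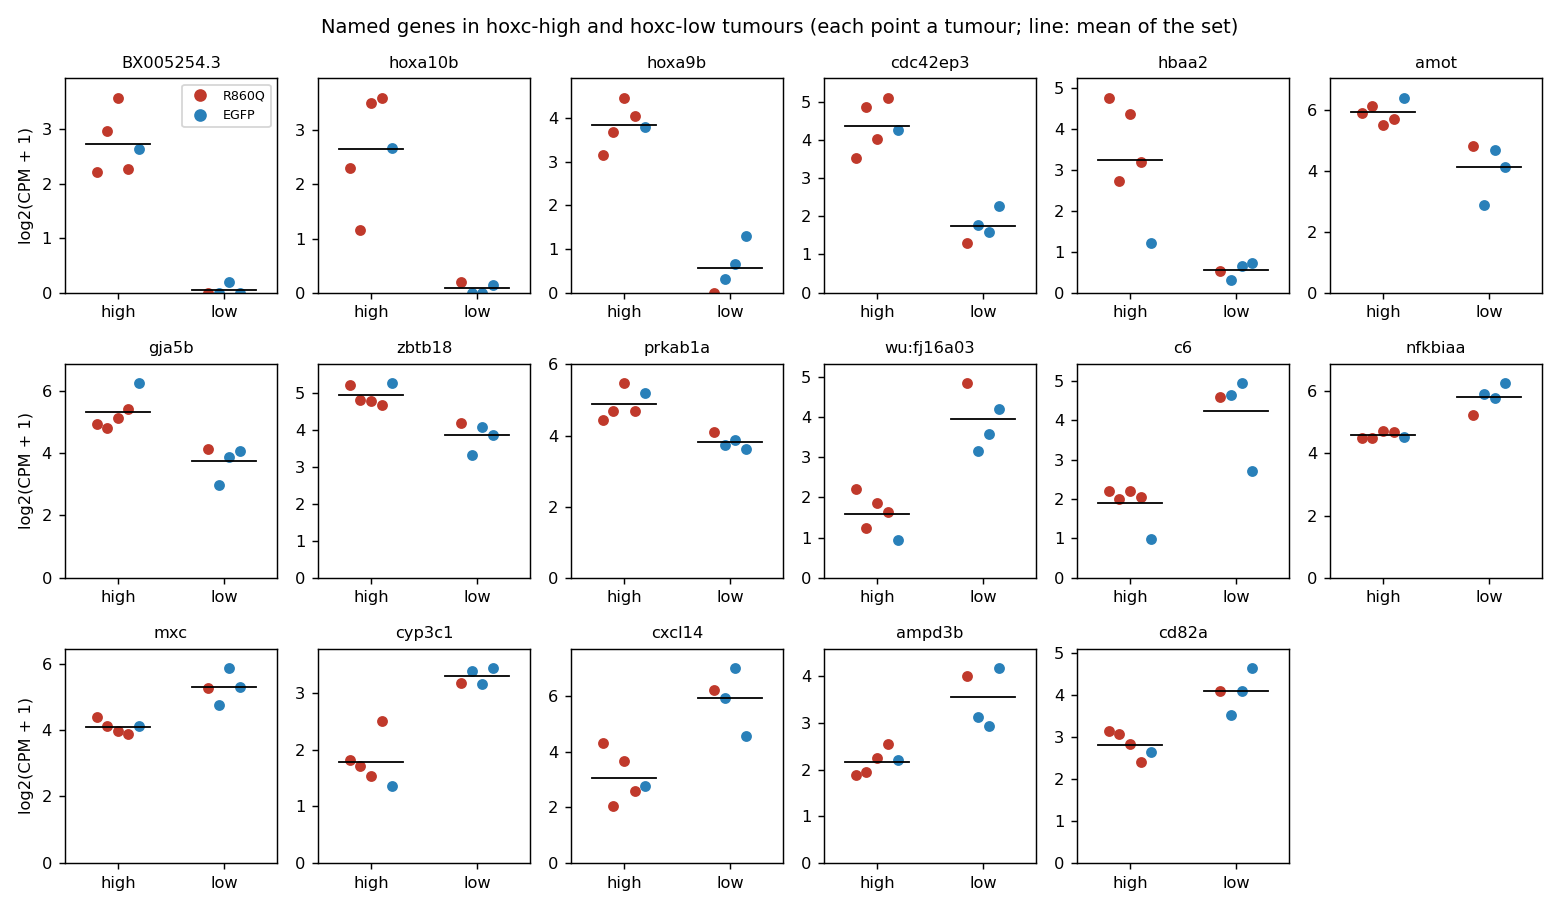
Levels of the called gene and of the named genes that had the smallest p, and of the marker hoxa9b, as log2(normalised CPM + 1), in each hoxc-high and hoxc-low tumour, coloured by vector, with a line at the mean of each set. The sets do not overlap in any panel, a property that the choice of genes by p favours.

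Within each vector the same contrast rests on a single tumour, R159 among R860Q tumours and R163 among EGFP tumours. For cdc42ep3, the 4 hoxc-high R860Q tumours exceeded R159 by 3.58 log2 units and R163 exceeded the 3 hoxc-low EGFP tumours by 2.66. For c6 these differences were -2.72 and -3.75, and for nfkbiaa -0.66 and -1.49. The called gene and the 15 named by their p, 16 in all, had the same sign in both vectors, which their choice favours. With the vector as a term in edgeR, 0 genes were called higher and 2 lower, adcyap1b (-6.31 ± 0.68, adjusted p = 0.0188) and wu:fj16a03. The neuropeptide gene adcyap1b was at 82.7 CPM in R159, 2.92 to 15.0 CPM in the other hoxc-low tumours and 0 to 1.98 CPM in the hoxc-high tumours.

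**Figure D4:**
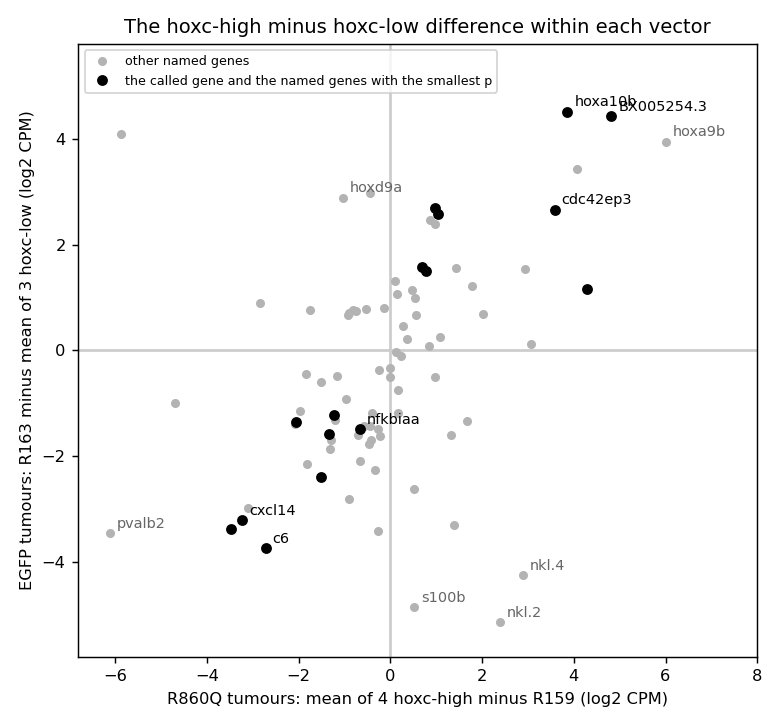
Difference of hoxc-high minus hoxc-low tumours in log2 CPM among R860Q tumours (horizontal axis) and among EGFP tumours (vertical axis) for the named genes. The genes named by their p (black) lie in the upper right and lower left, and the natural killer lysin genes nkl.2 and nkl.4 lie in the lower right, with opposite signs in the 2 vectors.

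Genes that act with or upstream of Hox genes showed no call, as did all but 1 of the 15158 genes tested. Of 7 tested Hox cofactors, 5 were higher in hoxc-high tumours (median log2 fold change 0.35, against -0.02 over all genes). The cofactor pknox1.2 was at 84.3 to 227 CPM in the hoxc-high and 20.3 to 127 CPM in the hoxc-low tumours (1.51 ± 0.51, edgeR adjusted p = 0.549), and pbx4 differed by 0.56 ± 0.38. With the vector as a term the cofactor median was -0.23. Of 17 retinoic acid genes, 8 were on the higher side (median -0.06), and on the lower side were the synthesis enzyme aldh1a2 at -1.91 ± 0.73 and the receptor raraa at -0.93 ± 0.37. Of 37 Polycomb and Trithorax genes, which keep Hox genes silent or active, 24 were on the higher side (median 0.04), with jarid2b at 0.70 ± 0.30. None of the 7 caudal and even-skipped rows had reads enough to be tested.

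Regional transcription factors other than Hox genes were mostly too low to test. Of 31 head and face rows 6 were tested (median 0.23), of 24 fin and limb rows 4 (median -0.62), and of 22 dorsoventral skin rows 6 (median 0.40). The forebrain and jaw gene dlx1a was at 52.2 CPM in R159, 30.4 CPM in R164 and 25.7 CPM in R163, and at 0 to 6.81 CPM in the other 6 tumours, so that it crossed the sets. The genes dlx3b, prdm1a, msx2b, tbx2a and tbx2b had edgeR adjusted p-values of 0.549 to 0.801.

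The scores of the pigment cell lists overlapped between the sets. Of 19 melanocyte genes 10 were on the higher side (median 0.02), with the melanosome receptor gpr143 at 1.32 ± 0.78 and the melanin-concentrating hormone receptor mchr2 at -2.12 ± 0.72. Of 20 neural crest genes 8 were on the higher side (median -0.14), with sox9b at -2.30 ± 0.91 and nr2f1a at -1.39 ± 0.44. Of 18 iridophore and xanthophore genes 14 were on the higher side (median 0.55), with scarb1, a carotenoid uptake gene of xanthophores, at 363 CPM in R161 and 14.5 to 56.3 CPM in the other 8 tumours. None of these genes was called.

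Immune genes lay mostly on the lower side, and the score of the T and natural killer cell list was high in the 3 EGFP tumours of the hoxc-low set but not in R159. Of 11 tested T and natural killer cell genes 10 were on the lower side (median -1.51), of 10 B lymphocyte genes 10 (median -1.28), of 31 macrophage genes 28 (median -0.73) and of 18 neutrophil genes 17 (median -0.63), and 0 of these were called. The list score averages over genes the log2 CPM relative to each gene's mean. For T and natural killer cells it was 0.65 to 1.82 in the EGFP tumours R162, R164 and R165. In R159 it was -1.33, below all hoxc-high tumours at -0.65 to 0.12. The summed level of this list was 245 to 721 CPM in the hoxc-high and 360 to 824 CPM in the hoxc-low tumours. By this sum the hoxc-high tumour R158, at 721 CPM, lay above R162 at 485 and R164 at 441 CPM. The granule gene nkl.2 was at 24.7, 15.6, 10.1, 14.2 and 9.04 CPM in R157, R158, R160, R161 and R163 and at 2.76, 367, 270 and 348 CPM in R159, R162, R164 and R165 (-4.06 ± 0.94, edgeR adjusted p = 0.464). Without R159 it was called. The macrophage genes mpeg1.2 and lgals9l1 differed by -1.01 ± 0.30 and -2.21 ± 0.73, the neutrophil genes mmp9 and il6r by -1.94 ± 0.45 and -1.24 ± 0.36, and the B cell signalling genes btk and blnk by -1.59 ± 0.55 and -1.45 ± 0.52.

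With the vector as a term the list medians were -0.77 for T and natural killer cells, -0.56 for B lymphocytes and -0.31 for macrophages. The immune score was the mean of the macrophage score and the T and natural killer cell score. As a term it takes up the difference of these lists by construction. With this score as a term the medians were 0.18, -0.21 and 0.12, in the same order. Without R165 they were -0.85, -0.77 and -0.33. The neutrophil median was -0.64 with the vector and -0.03 with the immune score as a term. Single immune genes did not all follow the T cell pattern: mpeg1.2 was at 14.8 CPM in R159 and 9.50 CPM in R162, and btk at 7.11 and 1.95 CPM. Of 40 interferon genes 33 were on the lower side (median -0.50), with mxb at -1.69 ± 0.43. Of 30 immediate early genes 24 were (median -0.50), with egr3 at -2.95 ± 0.68 and ctgfa at -2.91 ± 0.72. In R159 mxb at 11.0 and egr3 at 1.60 CPM lay within the hoxc-high ranges, 5.68 to 14.4 and 0.435 to 3.05 CPM. For mxc at 37.7 and ctgfa at 28.0 CPM, R159 lay above all hoxc-high tumours. The highest ctgfa was 333 CPM, in R162. The part of immune cell content in the genes named above was not tested beyond these terms.

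**Figure D5:**
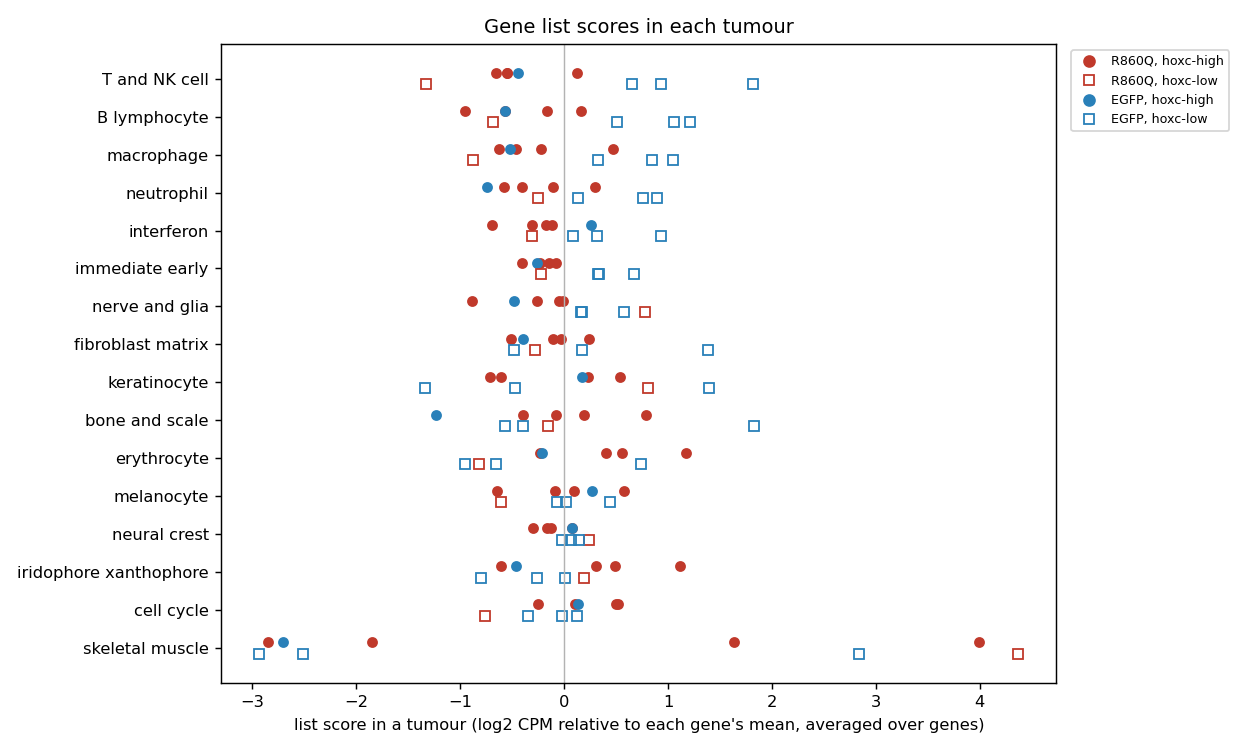
Score of 16 gene lists in each tumour, as log2 CPM relative to each gene's mean and averaged over genes, with filled circles for hoxc-high and open squares for hoxc-low tumours, coloured by vector. In the T and natural killer cell row the 3 EGFP hoxc-low tumours lie at 0.65 to 1.82 and R159 at -1.33, and the skeletal muscle row spreads from -2.93 to 4.37 within both sets.

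Several lists of neighbouring tissue depended on single tumours. In the skeletal muscle list 22 of 25 genes lay below 0 (median -0.90), while their summed level was 11.9 to 4940 CPM in the hoxc-low and 15.0 to 3660 CPM in the hoxc-high tumours, and without R159 the median was 0.89. The muscle calcium buffer pvalb2 was at 219, 109 and 104 CPM in R159, R162 and R160 and at 0 to 7.23 CPM in the other 6. In the bone and scale list 9 of 11 genes lay below 0 (median -0.77, and 0.44 without R165), with the matrix protein sparc at -1.27 ± 0.35 and the protease ctsk at -0.86 ± 0.38. In the fibroblast and matrix list 21 of 30 genes lay below 0 (median -0.67, and 0.06 without R165), with timp2b at -2.23 ± 0.53 and decorin, dcn, at -1.72 ± 0.53. In the keratinocyte list 18 of 23 genes lay below 0 (median -0.68, and 0.01 without R165), with tp63 at -1.06 ± 0.35 and cldne at -1.43 ± 0.61.

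In the nerve and glia list 11 of 13 genes lay below 0 (median -0.83, and -1.17 to -0.31 over the alternative settings). The list score was -0.89 to -0.01 in the hoxc-high and 0.16 to 0.78 in the hoxc-low tumours, without overlap, and 0 of the genes were called. Among the lists outside the Hox clusters it was the only one whose scores did not overlap. The summed level of the list did overlap, at 442 to 938 CPM in the hoxc-high and 522 to 1130 CPM in the hoxc-low tumours. By summed level other lists did not overlap. The fin and limb list was at 7.64 to 11.4 CPM in the hoxc-high and 12.2 to 26.1 CPM in the hoxc-low tumours. The cartilage list was at 82.2 to 274 CPM and 12.7 to 55.3 CPM, in the same order. The glial gene s100b was at 644 CPM in R162 and at most 4.61 CPM in the other 8 tumours, and fabp7b differed by -2.11 ± 0.65. In the endothelium list 9 of 16 genes lay below 0 (median -0.09), with vwf at -1.88 ± 0.46 and stab1 at -1.16 ± 0.58. Of 17 erythrocyte genes 10 were on the higher side and 6 on the lower (median 0.38). The summed level of the list was 832 to 2850 CPM in the hoxc-high and 254 to 3490 CPM in the hoxc-low tumours. The gene hbba2 differed by 3.05 ± 0.84, and by 1.68 ± 1.27 with the vector as a term. It overlapped between the sets, at 3.04 CPM in R163 and 6.34 CPM in R162. The 2 tested eye genes, gnat2 and best1, differed by 0.21 ± 0.61 and -0.09 ± 0.46, and the 2 tested gut, liver and kidney genes, tfa and slc20a1a, by -2.50 ± 1.19 and 0.13 ± 0.61.

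Of 4 cartilage genes 2 were on the higher side (median 0.06). Among them the collagen gene col9a2 was at 111, 249, 66.9, 96.0 and 106 CPM in R157, R158, R160, R161 and R163 and at 6.67, 0.731, 43.0 and 23.1 CPM in R159, R162, R164 and R165. The sets did not overlap (2.77 ± 0.87, edgeR adjusted p = 0.542), while its partner col9a1a differed by 0.22 ± 0.45. Of 43 cell cycle genes 38 were on the higher side (median 0.37) and 0 were called, with the spindle gene tpx2 at 1.26 ± 0.43 and the topoisomerase top2a at 0.96 ± 0.34. R159 had the lowest cell cycle score, at -0.76. The hoxc-high tumours R161 at -0.25 and R158 at 0.11 lay within the range of the other hoxc-low tumours, -0.35 to 0.12. R163 at 0.13 lay just above this range.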

How the data were processed

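RNA of 9 melanomas was analysed from raw read counts per gene, deposited as 1 table per tumour. The authors used Bowtie and HTSeq with the build danRer10 (GRCz10), per the submitters' processing notes; their versions, the annotation and the strand setting are not given in the sources used here. Overlapping and antisense genes and near-identical copies were therefore not separated. No column of another sample was present (0). Sets were cut at more than 30 and less than 1 TMM-normalised CPM of hoxc11a. Genes passing filterByExpr (count minimum 10, total minimum 15) were tested over all 9 tumours with edgeR 4.0.16 (quasi-likelihood, robust) in R 4.3.3, Benjamini-Hochberg threshold 0.05; hoxc rows stayed in the fit and out of the counts. DESeq2 1.42.0 and limma 3.58.1 (voom with sample weights), other size factors, no and stricter filters (CPM of 1 in 4 tumours), vector, muscle and immune terms and leaving out each tumour were alternatives. The fit was tested on simulated data. Standard errors derive from the quasi-likelihood F. Fitted fold changes of genes near 0 reads depend on the prior count and are no bounds. The 3-read floor and exact intervals cover counting error only. Named genes are Hox rows, up to 12 called genes per direction (or the 8 with the smallest p, clone names left out, with the marker hoxa9b among them given as values only), in each list up to 4 called genes or the 2 with the smallest p, and the genes flanking hoxc. Members and lists were chosen with earlier results of these data known. Of 30649 symbols, 18273 matched the RefSeq table of GRCz12tu, used only for names and neighbours. The result for 1 named gene is not reported here.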

Additional observations from a re-analysis of the deposited data

Results flagged for a closer look

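Over 84 named genes in 2 sets, 9 of 168 groups of values held a tumour far from the rest of its set by Dixon's gap criterion. Chance meets this criterion in about 1 of 20 groups. The number flagged was close to that share, and the flagged values are given as a description only. Among hoxc-low tumours R159 stood apart in 3 immune genes, with nkl.2 at 2.76 CPM against 270 to 367, nkl.4 at 0 against 12.0 to 23.8 and lgals9l1 at 6.96 against 72.9 to 96.3. R162 stood apart in s100b, at 644 CPM against 0.290 to 1.41, and R157 among hoxc-high tumours in the same gene, at 4.61 against 0.103 to 0.290. The complement gene c6 was low in R163, at 0.986 CPM against 3.0 to 3.62, and in R165, at 5.54 against 23.1 to 29.7. The row zgc:174719, beside the b copy of the hoxc cluster, was low in R158, at 0.103 against 1.56 to 2.23. BX005254.3 was at 0.145 CPM, a single read, in R164 and at 0 in the other 3 hoxc-low tumours. In a fit of set, vector and their interaction, 0 of the named genes and 2 of 15169 genes had a set difference that differed between vectors at an adjusted p of 0.05 (edgeR), and 970 at an unadjusted p under 0.05.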

How the results depend on the processing

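The count of called genes depended on the test and on single tumours. Genes higher in hoxc-high tumours numbered 3 with no filter on low counts, 35 with DESeq2, 0 with limma voom, 0 with the vector as a term and 0 with an immune score as a term, and 0 to 2 when 1 tumour was left out. Genes lower numbered 64 with DESeq2, 2 with the vector as a term and 0 to 4 when 1 tumour was left out. Without R159 the counts were 0 and 4, without R162 and without R164 0 and 0, without R158 2 and 2, without R163 2 and 0, and without R165 2 and 1. The genes counted as higher with DESeq2 and without R165 include the marker hoxa9b, which is no result of a test. The Fisher p of set by vector was 0.143 to 0.486 with 1 tumour left out. Of the recomputed gene values, 1531 kept direction and side of the threshold, 32 came to pass it, 6 lost it (all BX005254.3) and 36 in 16 genes changed sign, none of them past the threshold in the fit reported. With the immune score as a term these were aldh1a2 at 0.24, col9a1a at -0.21, slc20a1a at -0.09, nkl.4 at 0.18, nr1d4b at 0.32, hnrnpa1b at -0.14 and hnrnpa1a at -0.01. With the vector as a term they were gnat2 at -0.09, slc20a1a at -0.33, hoxd3a at -0.10, nr1d4b at 0.12, hnrnpa1b at -0.31 and hnrnpa1a at -0.35, with limma voom gnat2 at -0.06, hoxb9a at 2.47 and hoxd4a at 1.36, and with a muscle score as a term hoxb9a at 0.51 and hoxd4a at 1. With 1 tumour left out the ranges were -1.58 to 0.23 for acta1a, -0.22 to 0.85 for gnat2, -0.36 to 0.13 for best1, -0.20 to 0.77 for slc20a1a, -7.54 to 0.24 for s100b, -1.53 to 0.74 for hoxb9a, -0.58 to 1.80 for hoxd4a, -0.10 to 0.52 for mitfa, -0.13 to 0.59 for hnrnpa1b, -0.13 to 0.39 for hnrnpa1a and -0.25 to 0.95 for zgc:174719. The cause was not tested. No paired analysis was made, because each tumour has its own number and the labels name no pairs. The common biological coefficient of variation was 0.518.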

Other observations

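Several genes outside the lists had levels that did not overlap between the sets or ran across them, and were chosen after their values were seen. Of 15158 genes tested, 105 were higher and 183 lower in every hoxc-high tumour than in every hoxc-low tumour. The p-values below are therefore a description only. The skin water and glycerol channel gene aqp3b was at 144, 566, 87.8, 197 and 484 CPM in R157, R158, R160, R161 and R163 and at 12.3, 0.244, 8.26 and 31.8 CPM in R159, R162, R164 and R165 (log2 fold change 4.47 ± 1.04, edgeR adjusted p = 0.464, DESeq2 adjusted p = 9.2e-05). The chromatin reader gene atad2b was at 103 to 423 CPM in the hoxc-high and 29.7 to 78.5 CPM in the hoxc-low tumours (2.11 ± 0.53, edgeR adjusted p = 0.464). The growth factor gene fgf2 was at 2.68 to 8.98 CPM against 0.244 to 1.74 CPM (2.40 ± 0.58). The forkhead gene foxd2 was at 37.3, 15.5 and 22.1 CPM in R159, R164 and R165, and at 1.22 CPM in R162, within the hoxc-high range of 0.142 to 3.21 CPM. The clone-named row BX465864.1 was at 0.930 to 11.0 CPM in the hoxc-high tumours and at most 0.109 CPM in the hoxc-low tumours. Its place relative to the Hox clusters was not determined.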
